A study of Arabidopsis thaliana with 14 samples.

Results

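A set of 100 genes was read highest in growth-arrested material of Arabidopsis thaliana, both in whole inflorescences and in laser-dissected shoot meristems. The 100 were taken from 21195 loci by a rule on the measured values. For each locus the inflorescence gap was the lower of the 2 arrested inflorescence arrays minus the highest of the 8 other inflorescence arrays. The meristem gap was the arrested meristem array minus the highest of the 3 other meristem arrays, and the smaller of both gaps was the score. The 100 highest scores were kept after 8 loci named in the rule had been set aside. All values are deposited log2 expression values, so that a gap of 1 is a 2-fold difference. High levels in arrest are therefore a property by which the genes were picked, and they are given below as a description with no test.

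The study compared arrays of plants whose inflorescences grew, stood still under the load of their own fruits, or had been relieved of fruits. Arrested arrays came from fertile plants labelled ms1-1 co-segregant (2 inflorescence arrays and 1 meristem array). Growing fertile plants carried the same genotype label (1 array per tissue). Growing sterile plants were ms1-1 homozygous, a male-sterile genotype that sets no seed without outside pollen (1 array per tissue). Fruits were removed from further arrested ms1-1 co-segregant plants, whose inflorescences were taken at 6 h, 24 h or 48 h (2 arrays per time) and whose meristems were taken at 48 h (1 array). No other treatment is named, and the plant age is not given in the labels. The protocol names Landsberg erecta (L-er) plants for the inflorescence time course and says that 3 to 4 fruits near the tip stayed in place, whereas the design text speaks of removing all fruits. Each inflorescence array was hybridised with RNA pooled from 3 to 10 plants, and meristems were cut from sections of at least 20 plants, with an additional RNA amplification. Nothing states that replicate arrays came from separate plantings, so p-values measure only the spread between these pools.

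In Arabidopsis the inflorescence meristems of a fruiting plant stop making flowers together, a state known as global proliferative arrest, and they can resume when the fruits are taken away. Arrested apices have been compared with dormant buds, in which abscisic acid responses are high and cell division is low. Senescence in this species is driven in part by NAC transcription factors, and it is accompanied by proteolysis in the vacuole and by export of nitrogen and metals to the seeds.

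Array medians were 7.27 to 7.45 (inflorescences) and 7.43 to 7.49 (meristems). Over all loci, replicates correlated at 0.991, 0.982 and 0.975 at 6 h, 24 h and 48 h, and at 0.947 in the arrested pair. The arrested pair is 1 array with an r code and 1 with a g code in its title, both growing inflorescence arrays carry r and every fruit removal array carries g. The labels do not explain these codes. Summed markers differed between the tissues in the direction of the labels. The summed linear level of 6 shoot meristem markers was 5475 to 8692 in meristem arrays and 1382 to 2508 in inflorescence arrays. That of 6 floral bud markers was 1220 to 1478 and 5353 to 11908. Not every single marker followed. The floral bud marker LFY read 8.68 to 9.45 in meristem and 6.5 to 8.5 in inflorescence arrays. The meristem marker KNAT1 read 8.41 to 9.37 and 8.3 to 9.93, and CLV1 and WUS overlapped between the tissues. Some cell type markers also differed between arrested and other inflorescences. Over all loci, limma called 16.6% higher and 16.4% lower in arrest than in the mean of the 5 other inflorescence groups. Late pollen markers (4 of 6 higher in arrest by limma) summed to 6287 and 8817 in the arrested inflorescence arrays. In the other inflorescence arrays they summed to between 260 and 2377. Green tissue markers (2 of 3 higher) summed to 32097 and 32738 against 11800 to 26991. Vascular markers (3 of 7 higher, 1 lower) summed to 4927 and 5189 against 1276 to 3170. Most of that arrested sum was SUC2 (11.95 and 11.72). The mean log2 level of the vascular list overlapped, with 7.859 and 8.113 against 7.249 to 8.364. SUC2 (2.137), PP2-A1 (1.458) and APL (0.643) were called higher and IRX3 (-0.981) lower. XCP1 (-0.626), XCP2 (-0.936) and SEOB (-0.154) were not called. Epidermis markers (3 of 4 lower) summed to 4073 and 5056 against 6891 to 8707. Tapetum markers (8 of 8 lower) summed to 458 and 485 in arrest, 396 and 387 at 6 h, and 468 and 491 at 24 h. Only the 48 h (6577 and 10115), fertile growing (23341) and sterile growing (11720) tapetum sums were far higher. Seed markers (2 of 12 lower, near the share of all loci) summed to 393 and 493, overlapping the 441 to 973 of the others. In the arrested meristem the shoot meristem sum was lower than in the other meristems (5475 against 7146 to 8692). Its markers were split. UFO (10.23 against 10.84 to 11.55), CLV1 (8.55 against 10.33 to 10.91) and WUS (7.35 against 8.09 to 8.61) were lower there. STM (11.41 against 11.25 to 11.4) and CLV3 (9.26 against 8.47 to 8.91) were higher, and KNAT1 lay within the range. The late pollen sum (314 against 418 to 501) and the floral bud sum (1220 against 1235 to 1478) were also lower than in the other meristems. Of the floral bud markers, PI (6.65 against 8.6 to 9.18), AP1 and AG were lower there. LFY (9.45 against 8.68 to 8.97), SEP3 (6.37 against 5.24 to 5.82) and AP3 were higher. Green tissue (1300 against 750 to 923) and epidermis sums (3753 against 3394 to 3592) were higher. Vascular (720 against 700 to 785), tapetum (1190 against 933 to 1236) and seed sums (848 against 823 to 857) lay within the range of the others. No marker value stood at 0. The part of these markers in the levels below was not tested, and in bulk material fewer cells of a type and less RNA per cell cannot be told apart.

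**Figure D1:**
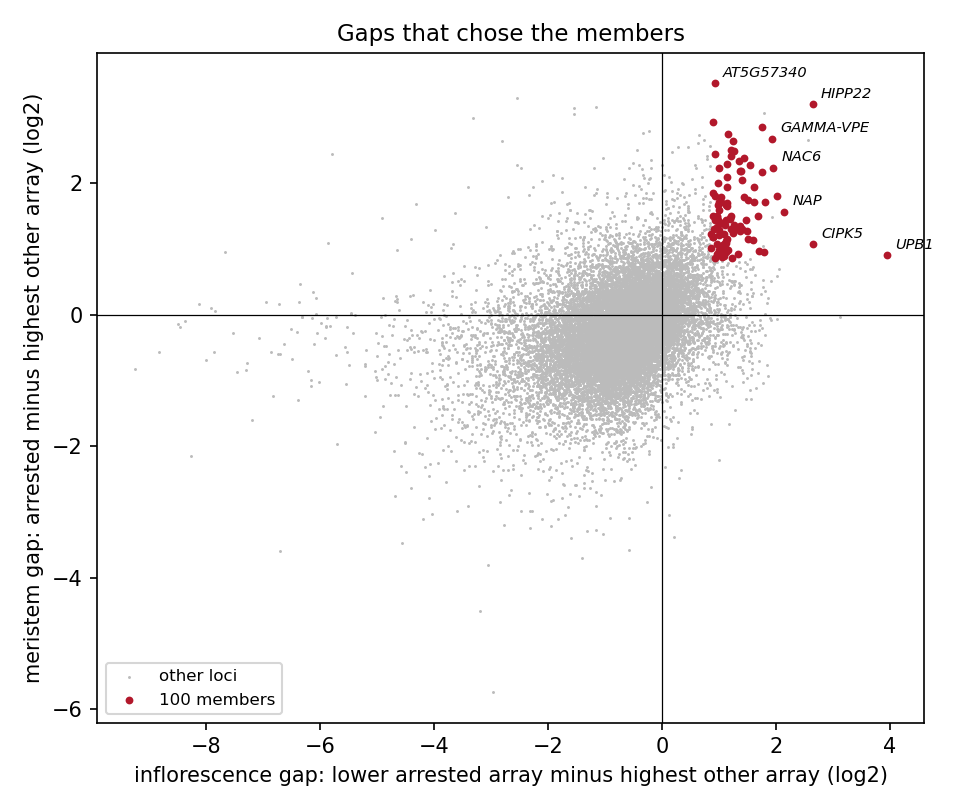
Inflorescence gap (x axis) and meristem gap (y axis) of all 21195 loci, both in log2 units, with the 100 members in red and other loci in grey. Members fill the upper right corner by construction, from HIPP22 with 2.65 and 3.21 to UPB1 with 3.95 and 0.91.

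Across the 100 genes the score ran from 0.86 to 2.65 with a median of 1.1. The inflorescence gap had a median of 1.14 and the meristem gap a median of 1.445, and the inflorescence gap was the smaller in 65 genes, the meristem gap in 33, while 2 genes had equal gaps. Both gaps were above 0 in 1777 of the 21195 loci, so the set holds the upper end of a larger group. The last 3 members were ATGP4 (0.87), AT5G59400 (0.87) and WRKY4 (0.86), and the first 3 loci outside were AT3G51730, AT4G30600 and AT4G38060 (0.86 each). WRKY4 was tied with 4 loci outside and was kept by locus order. Symbols other than the locus identifier existed for 53 members. The limit of the set was soft: 94 members remained after each array was centred on its median and 82 after quantile normalization within each tissue. Only 50 of them were chosen again without arrested inflorescence replicate 1, 70 without replicate 2, and 64 without the fertile growing inflorescence array.

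**Figure D2:**
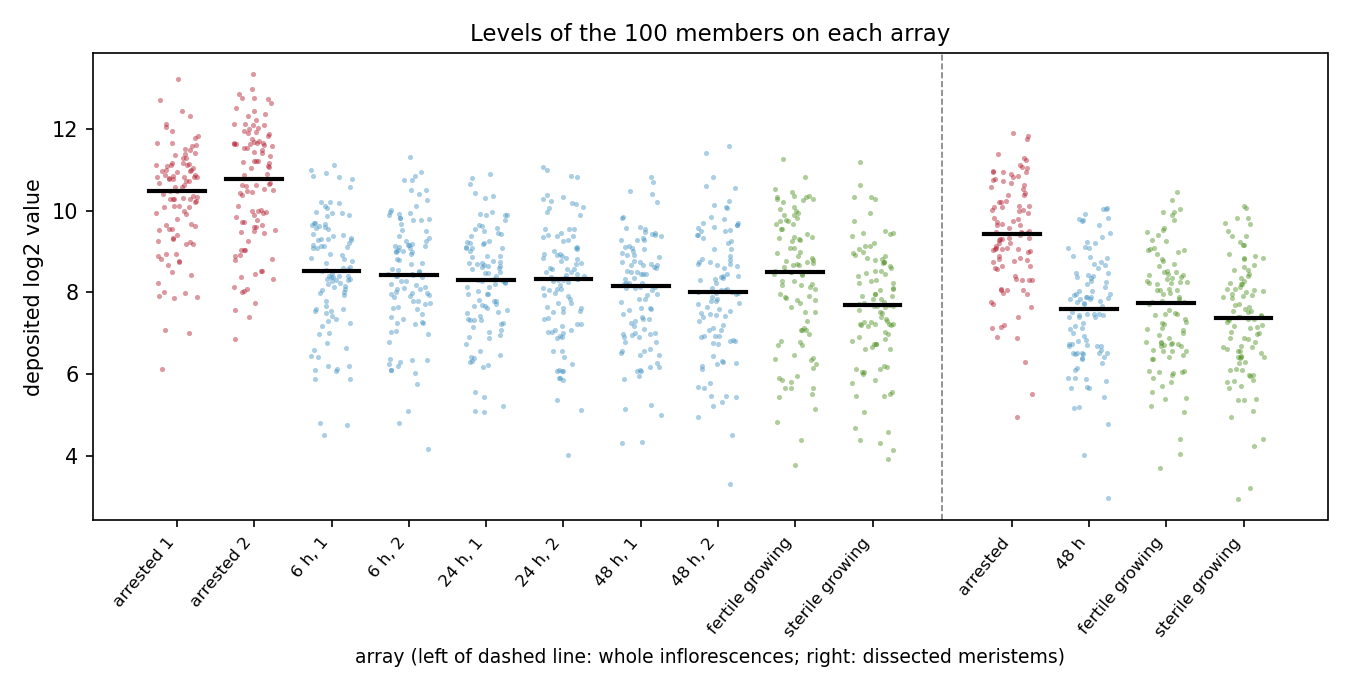
Deposited log2 value (y axis) of each of the 100 members (points) on each of the 14 arrays (x axis), with the median as a black bar and arrested arrays in red, fruit removal arrays in blue and growing arrays in green. Member medians were 10.475 and 10.765 in the arrested inflorescence arrays, and the fertile growing array (8.5) lay above the sterile growing one (7.685).

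Transcriptional regulators made up 14 of the 49 members that could be grouped by a known role, and senescence NAC factors stood at their head. Members named by role outside the 30 highest scores were chosen after their values were seen. NAC6, also called ORE1 or ANAC092, is a NAC factor that promotes leaf senescence. It read 10.29 and 11.08 in the arrested inflorescence arrays, 8.33 and 8.01 at 6 h, 7.43 and 6.25 at 24 h, 6.9 and 6.13 at 48 h, and 7.51 and 7.21 in the fertile and sterile growing arrays. In meristems it read 8.74 in arrest and 5.56, 6.5 and 5.86 in the fertile growing, 48 h and sterile growing arrays. Both arrested inflorescence arrays thus stood 1.96 or more above the rest, and after fruit removal the pair at 6 h was the highest.

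NAP, a NAC factor of leaf senescence first found as a target of floral homeotic genes, had a different profile among the active arrays. It read 11.81 and 12.12 in arrested inflorescences, 9.66 in fertile growing, 7.21 in sterile growing, and between 7.62 and 8.76 after fruit removal. In meristems it read 9.79 in arrest, 8.22 in fertile growing, 6.7 at 48 h and 6.78 in sterile growing. The fertile growing array was thus the next highest in either tissue. NAC047, linked to upward leaf bending under flooding, read 8.94 and 9.97 in arrested inflorescences and 6.06 to 7.8 in the others, and 8.64 against 6.66 to 6.7 in meristems.

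Homeodomain, MYB and light-signalling factors followed. BLH3, a BEL1-like homeodomain protein of the family that pairs with KNOX proteins, read 10.3 and 9.98 in arrested inflorescences against 7.71 to 8.44 elsewhere, and 8.39 against 5.72 to 6.11 in meristems. Its relative BLH1 read 11.78 and 11.62, and its fruit removal arrays (9.45 to 10.57) lay above both growing arrays (8.61 and 8.3). MYB3, a repressor of phenylpropanoid genes, read 11.1 and 11.53 against 8.82 to 9.7, and in meristems 10.67 against 8.05 to 9.36. COL5, a CONSTANS-like B-box protein, read 11.66 and 12.62 in arrest, 10.21 in fertile growing and 7.96 in sterile growing inflorescences. The same order of fertile above sterile was seen for AT5G61590 (Decrease Wax Biosynthesis, an ERF repressor of wax genes), with 9.88 and 7.85 against 11.4 and 12.98 in arrest. UPB1, a bHLH factor that governs the move from division to differentiation in roots through reactive oxygen species, had the widest inflorescence gap of all members. It read 9.31 and 9.04 in arrested and 3.33 to 5.09 in all other inflorescences, but only 4.96 in the arrested meristem against 2.98 to 4.05.

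SEP4, a MADS-box protein of flower meristem identity and another of the regulators, read 10.23 and 10.47 in arrested inflorescences against 8.4 to 9.14, and 10.85 against 9.69 to 9.78 in meristems. MYB74, a MYB factor of salt responses, was at a low level in inflorescences (7.02 and 7.4 against 4.69 to 5.88) and higher in the arrested meristem (8.08 against 5.1 to 6.38). SR1, a calmodulin-binding transcription factor also named CAMTA3, read 10.08 and 10.39 against 8.63 to 9.03, and in meristems 10.93 against 9.96 to 10.05.

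Proteases and parts of protein degradation formed a group of 7 members. GAMMA-VPE, a vacuolar processing enzyme that acts in protein maturation and cell death in vegetative tissue, read 13.22 and 12.85 in arrested inflorescences, 10.92 and 10.75 at 6 h, 9.64 and 10.18 at 24 h, 9.34 and 9.69 at 48 h, 10.09 in fertile growing and 8.75 in sterile growing. In meristems it read 11.89 against 9.09, 9.21 and 8.84 in the fertile growing, 48 h and sterile growing arrays. ALPHA-VPE, its close relative, read 8.68 and 8.45 in arrest, 6.43 and 6.26 at 6 h, and between 5.09 and 5.9 in the other inflorescences, and 7.77 against 5.43 to 5.96 in meristems. Both vacuolar enzymes had 6 h as the next highest time point. RD21A, a papain-like cysteine protease induced by drought, read 12.12 and 12.73 against 9.44 to 11. In chloroplasts, ERD1 (a Clp chaperone, also ClpD) read 9.67 and 10.52 against 7.67 to 8.58, and VAR2 (the thylakoid protease FtsH2) 12.32 and 12.08 against 10.33 to 10.85. AIRP2, a RING-type ubiquitin ligase of abscisic acid responses, read 8.24 and 9.03 in arrested inflorescences, 5.51 to 6.48 in the others, and 8.58 against 5.84 to 6.41 in meristems. AT3G59940 (KISS ME DEADLY 4, an F-box protein that targets cytokinin response regulators) read 11.16 and 12.02 in arrest and 8.36 to 10.12 otherwise.

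Kinases and growth signals were represented by SNRK2-8, a kinase activated by osmotic stress, CIPK5, a partner of calcium sensors, WNK4, the secreted peptide PSY1 and ARL, an ARGOS-like protein that promotes cell expansion. CIPK5 had one of the wider inflorescence gaps (2.66), with 11.11 and 11.2 in arrest and 7.51 to 8.45 in the others, and a meristem gap of 1.08. ARL read 9.98 and 9.99 in arrested inflorescences against 7.13 to 8.71, and 10.53 against 7.59 to 8.04 in meristems.

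HIPP22, a small metal-binding isoprenylated protein, had the highest score of all. It read 11.48 and 11.87 in arrested inflorescences, 8.83 in fertile growing, 6.62 in sterile growing, and 6.11, 6.02, 6.31, 6.58, 6.17 and 6.2 in the arrays at 6 h, 24 h and 48 h. In meristems it read 11.05 in arrest, 7.84 at 48 h, 6.57 in sterile growing and 6.04 in fertile growing. In inflorescences its 6 fruit removal arrays were the lowest of all, already at 6 h. YSL3, which moves metal and nicotianamine complexes out of leaves and into seeds, read 10.63 and 11.76 in arrest against 7.67 to 9.26, and 11.06 against 8.28 to 8.87 in meristems. FRO3, a mitochondrial ferric reductase induced by iron shortage, read 9.52 and 8.52 against 6.12 to 7.14. The cationic amino acid transporter CAT2 (AT1G58030) and the ABC transporter PEN3 formed the rest of the transport group, with inflorescence gaps of 1.11 and 1.01.

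**Figure D3:**
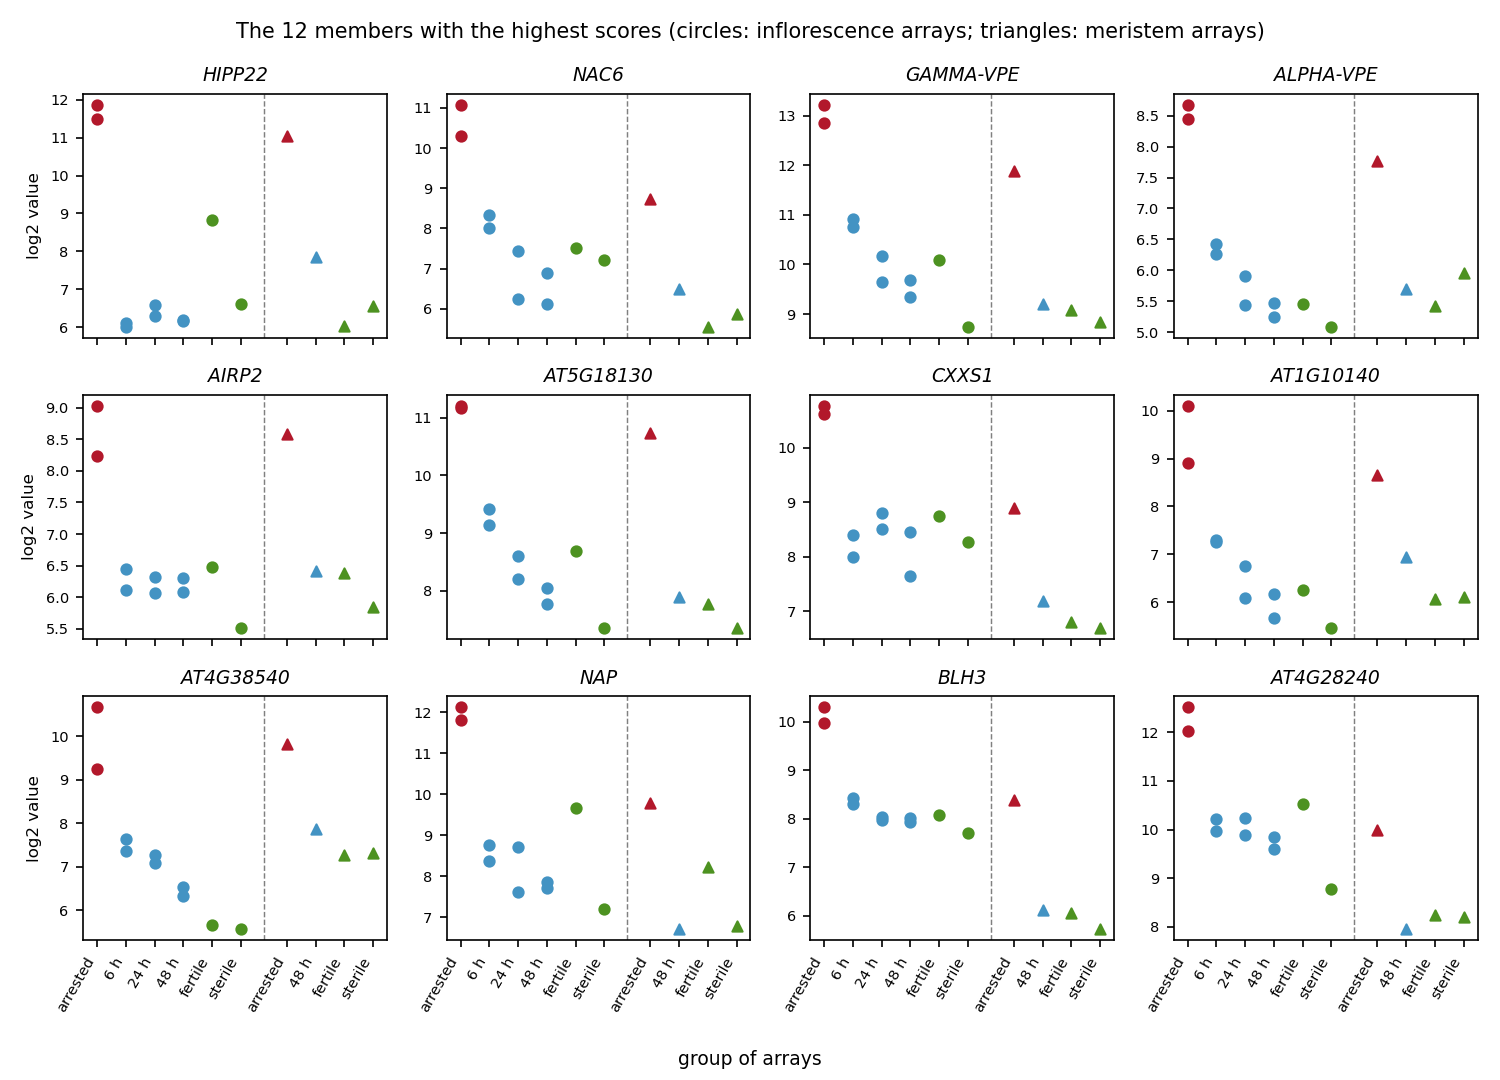
Deposited log2 values (y axes) of the 12 members with the highest scores in each group (x axis), with each point 1 array, circles for inflorescences and triangles for meristems. In every panel the arrested points (red) lie above all others of the same tissue, by the rule, while the order of the blue and green points differs between genes.

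Enzymes of carbon, nitrogen and tocopherol metabolism were present as single genes of many pathways. PPDK, pyruvate orthophosphate dikinase, which helps to export nitrogen from ageing leaves, read 10.81 and 11.19 in arrested inflorescences, 9.69 and 9.53 at 6 h, 8.88 and 9.1 at 24 h, 8.11 and 9.06 at 48 h, but 5.96 and 6.17 in the fertile and sterile growing arrays. GGT1, a peroxisomal aminotransferase of photorespiration, read 12.7 and 12.74 against 10.62 to 11.57. PDS1, which breaks down tyrosine on the way to tocopherol, and VTE5, a phytol kinase that feeds tocopherol synthesis from chlorophyll breakdown, had scores of 1.16 and 1.13. Sucrose synthase SUS3 (1.23), the peroxisomal citrate synthase CSY3 (0.96) and the purine-degrading allantoinase ALN (0.9) stood in the same group of 10. BGAL4, a beta-galactosidase, differed most between the arrested arrays, at 10.47 and 13.33 against 7.47 to 9.08 in the others.

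The remaining 8 grouped members were cytochrome P450 enzymes, redox proteins and other chloroplast proteins. CXXS1, a thioredoxin-like protein, read 10.77 and 10.62 in arrested inflorescences against 7.65 to 8.81, and 8.89 against 6.69 to 7.18 in meristems. CYP71B12 read 7.86 and 8.12 against 4.6 to 6.17, and in meristems 5.53 against 2.95 to 4.02. J20, a chloroplast co-chaperone, read 11.51 and 11.99 in arrested inflorescences, 10 in fertile growing and 8.18 to 9.08 in the other arrays. CDSP32, a chloroplast thioredoxin-like protein of drought responses, read 12.44 and 12.36 against 10.46 to 11.4, and NdhS, a subunit of the chloroplast NADH dehydrogenase-like complex, 10.71 and 10.45 against 8.52 to 9.49. AT4G31240 (nucleoredoxin) read 9.19 and 9.65 against 6.75 to 7.93.

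Another 51 members had no group here, and several of these were among the highest scores. AT5G18130 read 11.17 and 11.2 in arrest, 9.42 and 9.14 at 6 h, 8.2 and 8.6 at 24 h, 7.77 and 8.06 at 48 h, 8.69 in fertile and 7.36 in sterile growing inflorescences. AT4G38540 and AT1G10140 shared a score of 1.61, and both had 6 h as the next highest time point (7.35 and 7.64, and 7.29 and 7.25). SIS, a salt-induced serine-rich protein, had a 6 h level (7.55 and 7.27) well under the fertile growing one (9.36). AT4G28240 read 12.03 and 12.51 in arrest, 10.52 in fertile growing, 8.78 in sterile growing and 9.61 to 10.23 after fruit removal, so that its lowest array was again the sterile one. AT3G14560 read 8.42 and 8.82 against 5.47 to 6.98, and AT3G03870 read 10.11 and 11.07 against 7.77 to 8.76. Like AT4G28240, ML5 (a MEI2-like RNA-binding protein), AT1G01240 and AT2G46550 had the fertile growing array as the next highest, at 10.32, 9.31 and 9.74. The widest meristem gap (3.52) was that of AT5G57340, a gene of low score (0.93). It read 10.09 in the arrested meristem against 5.45 to 6.57, with inflorescence values of 8.93 and 8.52 against 5.66 to 7.59. The set held a pair of directly neighbouring genes, AT4G37550 and AT4G37560 on chromosome 4. Whether their probes can read each other's transcripts was not tested.

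The arrested replicates were not equally high. Replicate 2 was above replicate 1 in 72 of the 100 genes, against 54.25% of all loci, and by a median of 0.32 against 0.06. The replicates were 1 or more apart in 16 genes, with replicate 2 the higher in 13 of them. HSPRO2 (10.27 and 12.74), SIS (10.81 and 12.32) and AT5G61590 (11.4 and 12.98) were among these, and CYP81D11 (10.78 and 8.33) was the largest difference in the other direction. The rule took the lower array, so a single high array could not admit a gene.

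In inflorescences, most of the distance between arrest and 48 h after fruit removal lay in the step to 6 h. The median of arrested mean minus 6 h mean was 1.84 over the 100 genes, with 2.055 at 24 h and 2.26 at 48 h. The difference reached at 6 h was 81% of that reached at 48 h in the median gene, and it ranged from 43.1% to 146%. In 20 genes the 6 h level already was at or under the 48 h level. These values contain the arrested arrays and describe what the rule selected. Among the 8 other inflorescence arrays, a 6 h array was the next highest in 40 genes, the fertile growing array in 30, a 24 h array in 21, a 48 h array in 9 and the sterile growing array in 0. Over all loci the highest of these 8 was a 6 h array in 14.44% and the fertile growing array in 13.63%. It was a 24 h array in 24.03%, a 48 h array in 14.96% and the sterile growing array in 32.94%. The 24 h and 48 h counts of members were thus not above these shares. Each time after fruit removal was read on more arrays than either growing group, for members and for all loci alike.

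**Figure D4:**
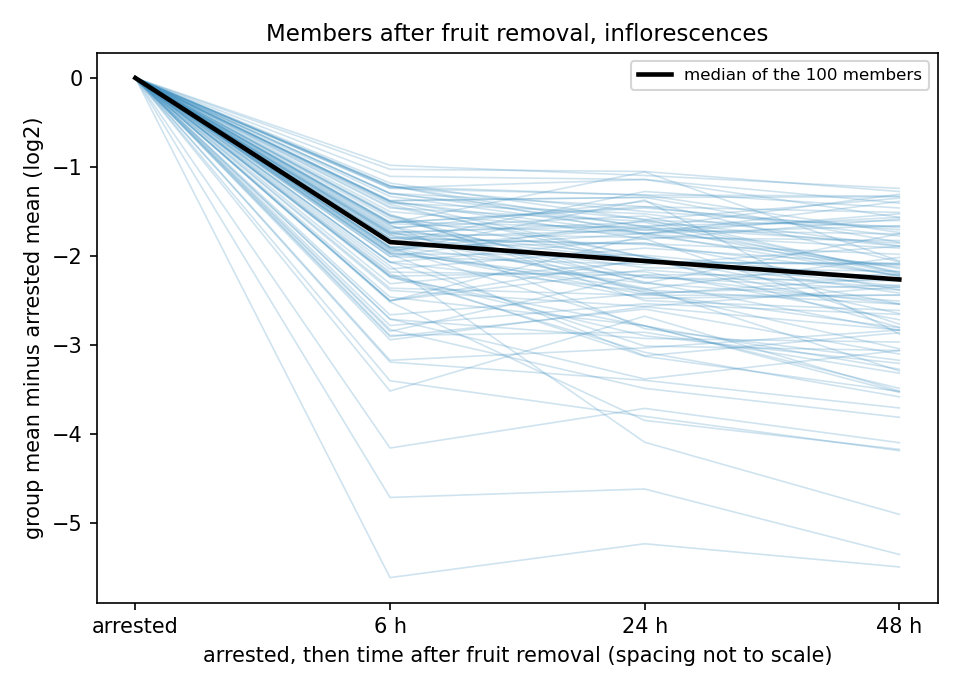
Group mean minus arrested mean in log2 units (y axis) for inflorescences at 6 h, 24 h and 48 h after fruit removal (x axis, spacing not to scale), with 1 blue line per member and the median in black. The median drops by 1.84 at 6 h, by 2.055 at 24 h and by 2.26 at 48 h, and the arrested start at 0 was fixed by construction.

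The rule used the level of the highest array without arrest but not which array it was, so the order among these arrays could be tested. The spread in these tests still comes in part from the arrested pair, whose values the rule used. For each comparison limma was fitted to the 10 inflorescence arrays over all 21195 loci, and a gene was called at a Benjamini-Hochberg adjusted p under 0.05, two-sided. From 6 h to 48 h, 3 of the 100 genes fell and 0 rose, against 2.99% of all loci called in either direction (0.925% lower and 2.06% higher). AT5G18130 changed by -1.365 ± 0.21 (SE, limma adjusted p = 0.0213), AT1G21000 by -1.52 ± 0.26 (limma adjusted p = 0.0293) and GAMMA-VPE by -1.32 ± 0.25 (limma adjusted p = 0.038). AT1G21000 read 9.58 and 9.25 at 6 h, 8.39 and 8.11 at 24 h, and 7.84 and 7.95 at 48 h, so that its pairs did not overlap. The direction was common to most members without passing the test: 80 of 100 differences were negative with a median of -0.42, against 44% of all loci and a median of 0.05. Both 48 h arrays lay under both 6 h arrays in 56 genes (25.8% of all loci) and above them in 8 (33.7%). NAC6 (-1.655, limma adjusted p = 0.0959) and AT5G61590 (-2.79, limma adjusted p = 0.0649) had larger differences that were not called. The 3 calls depended on single arrays. Leaving out either arrested array gave 13 calls, either 24 h array 1 call (AT5G18130), and any one of the 6 h or 48 h arrays 0 calls.

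The shorter steps gave no calls. From 6 h to 24 h, limma called 0 members and 0.0% of all loci, and 11 members were lower and 4 higher at an unadjusted p under 0.05 (3.61% and 7.38% of all loci). Differences were negative in 65 members with a median of -0.135, against 32.1% of all loci and a median of 0.145. From 24 h to 48 h limma called 0 members, against 0.561% of all loci (0.472% higher and 0.0896% lower), with 14 members lower and 0 higher at an unadjusted p under 0.05 (3.24% and 3.09% of all loci). Differences were negative in 79 members with a median of -0.26, against 60.9% of all loci and a median of -0.065. These steps share their 24 h arrays with each other and their outer arrays with the 6 h to 48 h comparison.

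**Figure D5:**
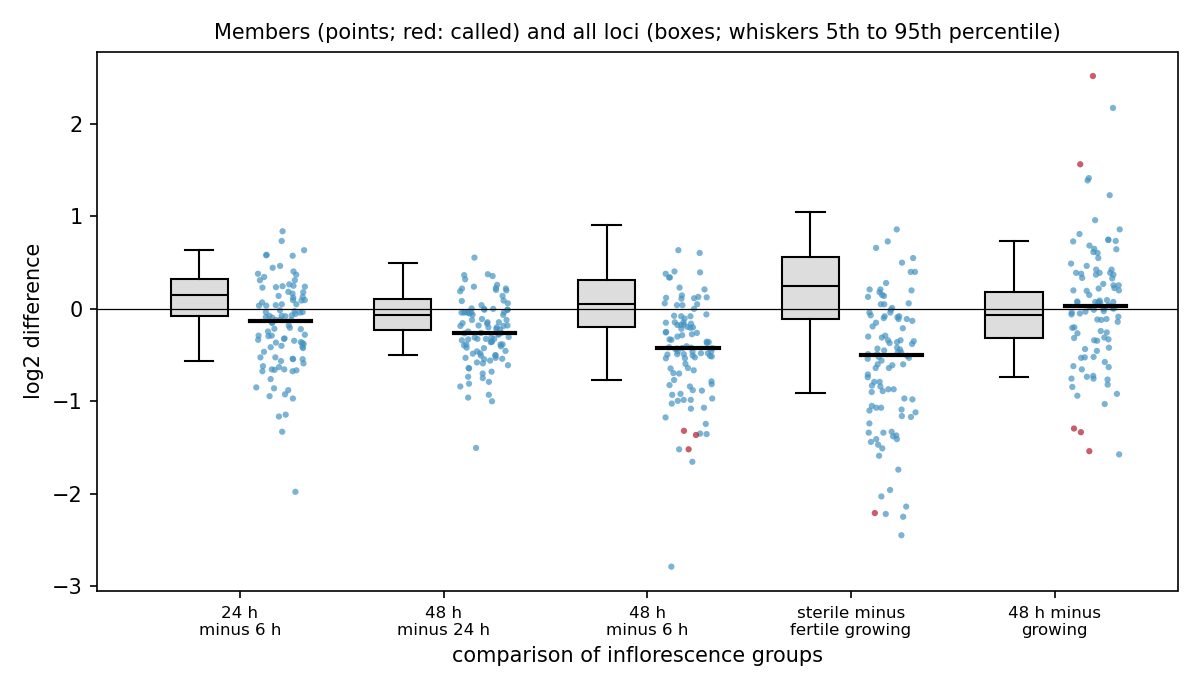
Log2 difference (y axis) in the 5 comparisons among inflorescence arrays without arrest (x axis). Grey boxes show all loci (whiskers from the 5th to the 95th percentile). Points show the 100 members, red where called by limma, with a black bar at their median. Member medians lie at -0.42 for 48 h minus 6 h, -0.5 for sterile minus fertile growing and 0.03 for 48 h minus growing.

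Sterile growing inflorescences often had the lowest levels. The sterile array was the lowest of the 8 other inflorescence arrays in 50 of the 100 genes, against 11.87% of all loci. Compared with the fertile growing array, limma called 1 member lower and 0 higher, against 0.67% of all loci called in either direction (0.514% lower and 0.156% higher). That member was HIPP22, with 6.62 in the sterile and 8.83 in the fertile array (-2.21 ± 0.28 SE, limma adjusted p = 0.0202). Differences were negative in 81 of 100 genes with a median of -0.5, whereas 31.2% of all loci were negative and their median was 0.25. At an unadjusted p under 0.05, 30 members were lower and 1 higher (5.25% and 13.6% of all loci). NAP (-2.45, limma adjusted p = 0.087), COL5 (-2.25, limma adjusted p = 0.156) and AT1G54740 (-2.22, limma adjusted p = 0.058) had differences as large that were not called. The sterile array read lower in all 7 members of the protease group, 13 of the 14 regulators and all 5 of the metal and transport group. It did so in 7 of 10 metabolism members, 3 of 5 kinases and signals, and 4 of 8 cytochrome P450 and redox proteins. With 1 array on each side the spread came from the other groups: leaving out either arrested array gave 8 calls, either 48 h array 1 call (HIPP22), and any one of the 6 h or 24 h arrays 0 calls.

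After 48 h without fruits, some members were still above the level of growing inflorescences and others were under it. Against the mean of both growing arrays limma called 2 members higher and 3 lower, while 1.07% of all loci were called in either direction (0.585% higher and 0.486% lower). PPDK differed by 2.52 ± 0.31 (SE, limma adjusted p = 0.0233) and SNRK2-8 by 1.565 ± 0.27 (limma adjusted p = 0.0492), the latter with 7.63 and 8.07 at 48 h and 6.38 and 6.19 in the growing arrays. Lower were HIPP22 (-1.54 ± 0.2 SE, limma adjusted p = 0.0243), AT5G22270 (Salt-Induced and EIN3/EIL1-Dependent 1, -1.335 ± 0.19, limma adjusted p = 0.0297) and AT1G21680 (-1.295 ± 0.21, limma adjusted p = 0.0431). AT5G22270 read 6.96 and 6.94 at 48 h against 8.5 and 8.07, and AT1G21680 8.33 and 8.4 against 10.35 and 8.97. Differences were positive in 54 members and negative in 46, whereas 42.4% of all loci were positive and 57.6% negative. The median was 0.03 against -0.065 over all loci. AT3G12320 (LNK3, a partner of the circadian clock) had the next largest positive difference (2.175, limma adjusted p = 0.0886), and BLH1 (1.39, limma adjusted p = 0.0656) was not called either. All growing arrays were r-coded and all 48 h arrays g-coded, so that any difference between the codes rests on the arrested pair. With the code as a block, limma called HIPP22 (-1.93) and SIS (-2.33), both lower, and 0 members higher. The other 4 calls were lost, with PPDK at 2.14 (limma adjusted p = 0.101), SNRK2-8 at 1.065 (0.244), AT5G22270 at -0.925 (0.111) and AT1G21680 at -1.645 (0.058). Leaving out either arrested array gave 13 calls, 48 h replicate 1 gave 1 call (PPDK), and 48 h replicate 2 or any one of the 6 h or 24 h arrays gave 0 calls. SNRK2-8 also lost its call after median centring.

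In meristems there was 1 array per group and no test was possible. Among the 3 active meristems, the fertile growing one was the highest in 49 genes, the 48 h one in 38 and the sterile growing one in 13, whereas over all loci these shares were 31.24%, 32.51% and 36.24%. The sterile growing meristem read lower than the fertile one in 73 genes, against 44.8% of all loci, with a median difference of -0.2 against 0.03. A difference of at least 2-fold was seen in 5 genes, all lower in the sterile meristem. Over all loci 0.722% were lower and 1.03% higher by as much. The 5 genes, named after their values were seen, were AT2G27830 (-2.08), AT2G17710 (-1.61), NAP (-1.44), AT5G45310 (-1.15) and AT5G65530 (-1.15). Comparing tissues, 16 members read higher in the arrested meristem than in the mean of the arrested inflorescences, against 63.01% of all loci. Dissected RNA went through another amplification kit than whole inflorescence RNA, so tissue and protocol cannot be told apart. AT1G31750 had the largest excess in the meristem (10.71 against 7.89 and 8.02), and UPB1 and BLH1 (7.39 against 11.78 and 11.62) were among those far lower in it.

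Around the set, other genes of abscisic acid signalling, senescence, autophagy and low-sugar response were higher in arrest too. The 10 lists were written from general knowledge, but with earlier results of these data known. Of their 135 genes 126 had values, 3 of which were members (NAC6, NAP and NAC047). For the other 123, arrested inflorescences were tested against the mean of the 5 other inflorescence groups, a contrast that the rule used for the members. Limma called 54 genes higher and 5 lower, against 33.0% of all loci called in either direction (16.6% higher and 16.4% lower), and the list median was 0.69 against -0.03 over all loci. Of 25 abscisic acid signalling genes 13 were higher and 0 lower, among them the PP2C phosphatases PP2CA (1.86 ± 0.16 SE) and ABI1 (1.175) and the kinases SNRK2.3 (1.48) and SNRK2.2 (1.23). Of the 9 other NAC factors 7 were higher, including NAC083 (2.38), NAC102 (2.14) and NAC019 (2.08). Senescence and chlorophyll breakdown held 7 of 13 higher, with SAG12, a senescence cysteine protease, at 3.45, NYE1 at 1.53, ACD1 at 1.25 and NYC1 at 1.43. Autophagy held 7 of 12 higher, with ATG8F at 1.47, ATG8I at 1.01, NBR1 at 0.89 and ATG8C at 0.8. Of 13 dormancy and low-sugar genes 8 were higher, among them DRM2 (4.23), DRM1 (2.81), TPS8 (2.71) and TPS11 (2.55). In 7 of these 8 the lower arrested array did not exceed all other inflorescence arrays, the exception being TPS8. DRM2, for example, read 10.94 and 12.93 in arrest but 12.85 in the fertile growing array. Such an overlap was found in 21 of the 54 genes called higher over all lists. The same share among all loci called higher was not computed, so these overlap counts have no background. Every gene of the dormancy and low-sugar list read higher in arrested replicate 2 than in replicate 1. TPS8 read 9.54 and 11.72, BGLU30 read 7.54 and 11.91, and SEN1, which was not called, read 7.18 and 13.37.

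The other lists held fewer calls. Of 19 dehydration and cold protective proteins 5 were higher and 14 not called, with SAG21 at 3.27 and COR47 at 2.09. COR47 read 10.32 and 11.24 in arrest and 10.82 in the fertile growing array, so that the groups overlapped, while RD29A (0.14 ± 0.8 SE) and ERD10 (0.003 ± 0.365 SE) were not called. In the list of raffinose and proline genes, 0 of 5 were called, namely 3 galactinol synthases, SIP1 of raffinose synthesis and the proline dehydrogenase ERD5, and no gene of proline synthesis was analysed here. The class I HD-ZIP list excluded 5 genes of this family that the rule had set aside, all with both gaps above 0. Their inflorescence and meristem gaps were 1.8 and 3.07 for HB-7, 1.94 and 1.49 for HB53, 1.78 and 1.04 for HB21, 0.74 and 2.66 for HB-12, and 0.58 and 1.91 for HB40. Among the 10 other HD-ZIP genes with values 1 was higher (HB6, 0.93) and 3 lower, HB51 at -0.96, HB-3 at -1.08 and HB23 at -0.58. Abscisic acid synthesis and breakdown held 4 of 10 higher, the synthesis genes NCED3 (1.62), AAO3 (1.345) and ABA1 (2.04) and the breakdown enzyme CYP707A2 (3.55), and 1 lower, BGLU18 (-4.09), which releases abscisic acid from its glucose ester. CYP707A2 read 11.63 and 8.25 in the arrested arrays and 8.16 or less in the others. The cuticular wax list held 2 of 7 higher, KCS6 (1.09) and KCS1 (0.58), and 1 lower, CER2 (-1.7).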

How the data were processed

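The deposited table holds 1 value per locus and array for 14 Affymetrix arrays, read as log2 values; the scale was inferred from the range (0 to 14.13), and the authors' summary, normalization and probe mapping are not given in the sources used here. Its 21253 entries include 58 controls, which were dropped, and 21195 loci were used with no filter, pseudocount or further scaling. Gene symbols came from the RefSeq table of TAIR10.1, which held 21097 of the loci and all 100 members.

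The fit was limma 3.58.1 under R 4.3.3 (lmFit, contrasts.fit and eBayes, defaults), with 1 mean for each of 6 inflorescence groups and 4 residual degrees of freedom. It was tested on simulated data. Values after ± are standard errors, and precision is limited by how few arrays there are. The 5 comparisons, the lists and the members were chosen with earlier results of these data known. Genes named were the 30 highest scores, members in a list, up to 5 called members per direction and comparison, 3 loci on each side of the limit, and up to 4 lowest p-values per list; others named were chosen after their values were seen. Alternatives were median centring, quantile normalization, a filter at the 25th percentile of mean level, a variance trend, other sets of arrays, a block for the r and g codes, and leaving out each replicate. Promoter and protein sequences were not used here.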

Additional observations from a re-analysis of the deposited data

Results flagged for a closer look

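In 3 cases a called difference in inflorescences had the opposite direction in meristems, where each group was a single array, and the difference between tissues was not tested. HIPP22 read lower in sterile than in fertile growing inflorescences (-2.21) but 0.53 higher in the sterile than in the fertile growing meristem. HIPP22 also read lower 48 h after fruit removal than in growing inflorescences (-1.54), whereas the 48 h meristem lay 1.535 above the mean of the growing meristems. AT5G22270 was lower at 48 h than in growing inflorescences (-1.335) and 0.78 higher in the 48 h meristem. No group held 4 or more arrays, so none was searched for outlying arrays.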

How the results depend on the processing

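No paired analysis was possible because the labels give the groups no shared replicate numbers. For 48 h minus 6 h, 3 members were called, beside 633 of all loci. Centring gave 5 members (594 loci), the variance trend 5 (844), the filter on low levels 5 (742) and quantile normalization 7 (929). The code as a block, the fit without the arrested arrays and the fit of the 6 fruit removal arrays gave 13 each (1757). All these member calls were lower. For sterile minus fertile growing, 1 was called, beside 142 of all loci. The trend gave 2 (170 loci), quantile normalization 3 (198), and the block and the fit without the arrested arrays 8 each (858). For 48 h minus growing, 5 were called (227 of all loci), against 13 (1237) without the arrested arrays and 2 (382) with the block. The 13 and 8 member calls thus came with more calls over all loci. Leaving out 1 replicate at a time gave 0 to 13, 0 to 8 and 0 to 13 calls in these comparisons, and 0 to 0 in both shorter steps, which had 0 calls under each alternative run. Of the 100 members, 64 were chosen again without the fertile growing inflorescence array, and 50 to 70 without an arrested replicate. The list count of 59 calls was 50 to 72 with 1 replicate left out and 77 with the block. The member median score was 1.14 to 1.26 with 1 array left out and 0.91 after quantile normalization. No named call changed direction. Leaving out an arrested array, the fit without both of them and the block each take the difference within the arrested pair out of the shared spread. That pair alone carries both codes. For 48 h minus 6 h and for sterile minus fertile growing they are therefore 1 alternative and not several. The fit of the 6 fruit removal arrays is again the same one for 48 h minus 6 h. The cause of the other changes was not tested, beyond the fewer arrays in some fits. The median SD over loci was 0.24 in the arrested pair and 0.085 at 6 h, so 1 shared spread can be too small for some groups and too large for others.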

Other observations

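Genes of the 10 lists that were not members could still have both gaps above 0, and 27 of 123 did, against 8.38% of all loci. The nearest to the set was NAC019, with a score of 0.84, followed within their own lists by NYE1 (0.68) in chlorophyll breakdown, the PP2C phosphatase HAI2 (0.57) and the late embryogenesis protein SAG21 (0.45). Abscisic acid signalling held 10 of 25 such genes. Of the 19 dehydration and cold protective genes, 16 had a meristem gap above 0 and 2 an inflorescence gap above 0. For the 13 dormancy and low-sugar genes these numbers were 9 and 1. Over all loci these shares were 31.6% and 13.8%. SAG12 was called in inflorescences (3.45) but read 6.45 in the arrested meristem against 6.21 to 6.51 in the others. Among the 8 loci set aside by the rule, the linker histone HIS1-3 had a score of 2.57, just under HIPP22, and LTI30 had one of -3.41.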
